A study of Mus musculus with 9 samples.

Results

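The enzymes that write, copy and remove DNA methylation were followed in 9 testis samples of mice aged 3 weeks. They were DNMT1, UHRF1, DNMT3A, DNMT3B, DNMT3L, TET1, TET2 and TET3, taken by gene symbol, and all 8 were among the 22337 genes of the deposited table. Total RNA came from 3 samples of wild-type mice (labelled WT-WT), 3 of heterozygous Piwil4 WT/R264W mice (WT-KI) and 3 of homozygous Piwil4 R264W/R264W mice (KI-KI). The knock-in mice were made by CRISPR-Cas9 editing of C57BL/6 zygotes and carry a tryptophan in place of an arginine of PIWIL4, a nuclear piRNA-binding protein of male germ cells. Below, the 2 knock-in groups are called heterozygous and homozygous. No group received a treatment, and the labels give no founder or littermate information. The deposited estimated counts summed to 18.0 to 24.3 M per testis, and all 8 genes passed the filter on low counts in every comparison.

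DNA methylation is copied at each cell division by DNMT1, which UHRF1 brings to hemimethylated DNA behind the replication fork. DNMT3A and DNMT3B methylate new sites, and DNMT3L, which has no catalytic activity of its own, stimulates them and binds histone H3 tails that lack methylation at lysine 4. TET1, TET2 and TET3 oxidise methylated cytosine, the first step of active demethylation. In the male germ line the de novo enzymes act mainly in fetal prospermatogonia, where PIWIL4 and its piRNAs direct methylation to young retrotransposons, so most of that work precedes the age studied here. Of a whole testis, RNA levels cannot tell fewer cells of a type apart from less RNA per cell.

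In the GENCODE annotation of GRCm38, Dnmt3l (ENSMUSG00000000730) spans chromosome 10 from 78041947 to 78063622 (plus strand) with 8 annotated transcripts, of which 6 are coding. Coding transcripts with the longest coding sequence, of 1263 bases, begin at 78042287, 78049842 and 78049959. A further start at 78055335 gives coding transcripts of 378 coding bases. Sex-specific Dnmt3l promoters are known, and truncated Dnmt3l transcripts have been described in spermatocytes. The counts here are per gene and do not show which start was used. The 250 bases before the internal starts of Dnmt3l, before a RefSeq start inside Tet3 and before a start of Dnmt3a are shown. These genes were called below for a change of RNA with the stage of the testes. The calls of Dnmt3a and Tet3 depended on the scaling and on single testes. All sequences are from RefSeq (GRCm38.p6), run 5′ to 3′ on the gene's strand and lie in introns. The Dnmt3a window is intronic only to transcripts that begin further upstream. The RefSeq start after it is 50 bases from that of Dnmt3a-201, a transcript with 2724 coding bases. Capitals mark CpG dinucleotides, the sites these enzymes act on.
Dnmt3l, chr10:78049592-78049841, plus strand: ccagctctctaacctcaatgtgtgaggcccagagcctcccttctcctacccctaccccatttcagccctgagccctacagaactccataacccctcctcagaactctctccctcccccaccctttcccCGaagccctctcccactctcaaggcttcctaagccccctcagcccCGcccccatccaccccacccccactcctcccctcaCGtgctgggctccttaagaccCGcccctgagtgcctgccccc
Dnmt3l, chr10:78055085-78055334, plus strand: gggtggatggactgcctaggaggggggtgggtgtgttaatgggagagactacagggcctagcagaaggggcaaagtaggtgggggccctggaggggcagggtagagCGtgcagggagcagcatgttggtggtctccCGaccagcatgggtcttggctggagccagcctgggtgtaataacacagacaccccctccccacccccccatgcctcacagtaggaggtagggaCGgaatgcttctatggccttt
Tet3, chr6:83441679-83441928, minus strand: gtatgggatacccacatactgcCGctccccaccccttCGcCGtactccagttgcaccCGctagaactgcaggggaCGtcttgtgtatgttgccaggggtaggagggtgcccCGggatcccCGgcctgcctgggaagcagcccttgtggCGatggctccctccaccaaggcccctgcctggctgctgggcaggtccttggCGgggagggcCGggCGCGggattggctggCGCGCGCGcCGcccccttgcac
Dnmt3a, chr12:3806730-3806979, plus strand: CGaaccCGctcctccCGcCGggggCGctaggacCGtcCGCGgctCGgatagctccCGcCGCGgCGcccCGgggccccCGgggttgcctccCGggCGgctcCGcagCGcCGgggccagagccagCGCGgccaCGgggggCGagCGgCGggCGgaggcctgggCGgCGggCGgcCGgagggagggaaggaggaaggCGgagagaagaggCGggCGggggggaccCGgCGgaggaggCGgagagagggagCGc
The windows differed widely in CpG content. The 3 RefSeq starts of Dnmt3l were preceded by 5, 4 and 3 CpGs, at or below the median of 6 over 32851 windows of the same length. The Tet3 window held 17 CpGs and the 3 Dnmt3a windows held 38, 40 and 15. Tet2, with 51 CpGs, stood above 99.9% of all windows, and Dnmt3b had 21, Tet1 15, Uhrf1 10 and 30, and Dnmt1 2, 7 and 26. Short letter matches were sought on both strands. The GC box GGGCGG was found 2 times in the first Dnmt3l window shown, not in the second, 5 times in the Dnmt3a window and 1 time in the Tet3 window, against 32.7% of all windows with at least 1. The E2F core GGCGGGAA, which can share letters with a GC box, was found in the upstream Uhrf1 window alone of the 15 windows of these 8 genes, against 1.86% of all windows. These are matches of letters in a window and no measure of binding.

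Levels of different genes were compared on the deposited FPKM, which is per transcript length. The maintenance pair was the highest. Uhrf1 had 46.6 ± 3.65 FPKM (SD, n = 9) and Dnmt1 26.4 ± 2.74 FPKM (SD, n = 9). The de novo methyltransferases followed, with Dnmt3a at 8.66 ± 1.34 FPKM and Dnmt3b at 3.76 ± 0.688 FPKM (SD, n = 9 each). Tet3 had 4.28 ± 0.865 FPKM, Dnmt3l 1.51 ± 1.08 FPKM, Tet2 0.744 ± 0.215 FPKM and Tet1 0.347 ± 0.0752 FPKM (SD, n = 9 each). Between neighbours in this order, Uhrf1, Dnmt1, Dnmt3a and Tet3 did not overlap, and neither did Tet2 and Tet1. Tet3 and Dnmt3b overlapped, with Tet3 higher in 8 of 9 testes. Dnmt3b was above Dnmt3l in 8 of 9 testes, and Dnmt3l was above Tet2 in 6 of 9, so the place of Dnmt3l depended on the testis. Among the TETs, Tet3 made up 76.3% to 82.3% of the summed FPKM in each testis (median 79.8%), Tet2 11.5% to 17.1% and Tet1 4.87% to 8.69%. The ratio of Dnmt3a to Dnmt3l FPKM ran from 2.11 to 27.4 over the 9 testes, while that of Dnmt1 to Dnmt3a ran from 2.67 to 3.32. The FPKM of Tet1 was not proportional to its counts, at 0.0623 to 0.118 FPKM per CPM (counts scaled to library size, with TMM between libraries).

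**Figure D1:**
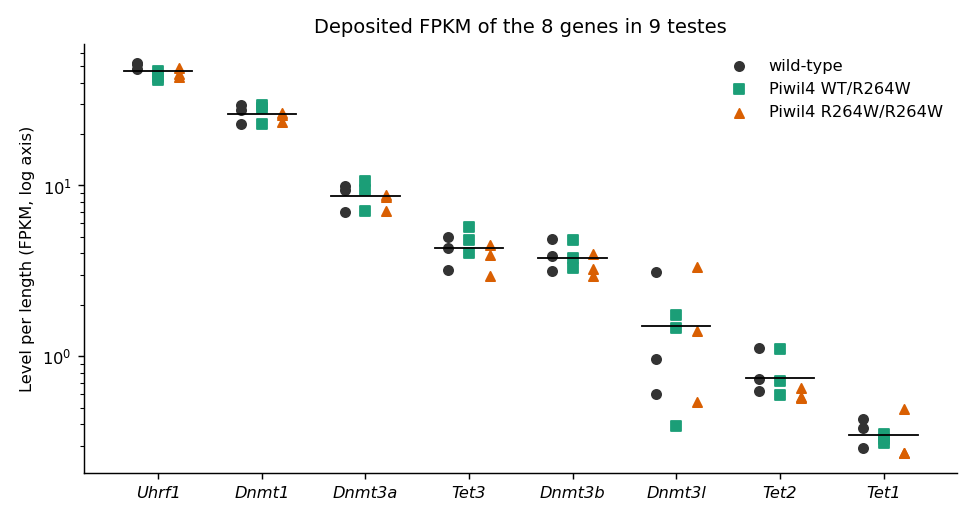
Deposited FPKM on a log axis for the 8 genes, ordered by their mean over 9 testes (black lines), with each testis a point marked by genotype. Uhrf1 (mean 46.6) and Dnmt1 (mean 26.4) lie highest, and the points of Dnmt3l spread from 0.390 to 3.34.

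At 3 weeks germ cells are passing through the first wave of spermatogenesis, which had come further in some testes than in others. Its stage was measured with a score, the average log2 CPM over 19 round spermatid genes, none of which is a gene followed here. One unit is thus a doubling of the typical round spermatid gene. From the lowest to the highest, the scores were 0.99 in heterozygous replicate 3, 1.55 in wild-type replicate 3, 2.58 in homozygous replicate 1, 2.73 in wild-type replicate 2, 3.68 in heterozygous replicate 2, 3.78 in homozygous replicate 2, 4.99 in heterozygous replicate 1, 5.78 in homozygous replicate 3 and 5.93 in wild-type replicate 1. Each genotype held testes over a wide part of this range. The testes were not split into stages. Instead, the slope of each gene on the score was fitted over all 9 testes with genotype as a term (edgeR's quasi-likelihood test, 15771 genes, Benjamini-Hochberg adjustment). Of all genes tested, 17.7% had a positive slope and 8.71% a negative slope at an adjusted p under 0.05, and the median slope was -0.01. Of the 8 methylation genes, 1 had a positive slope at that threshold, Dnmt3l, and 2 had a negative slope, Dnmt3a and Tet3. The score was measured in the same libraries, and the replicates of a genotype are separate labelled samples whose animals the labels do not describe further.

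Dnmt3l rose steeply with the wave. In order of the score, its level in the 9 testes was 0.525, 0.820, 0.760, 1.42, 2.07, 1.95, 2.33, 4.75 and 4.47 CPM. The 2 testes with the highest scores, one wild-type and one homozygous, had about the same level and lay above all others. These levels rest on 10 to 96 counts per testis. The slope was 0.60 log2 per unit of score (standard error 0.07, adjusted p = 3.72e-05, quasi-likelihood test of edgeR, adjusted by Benjamini-Hochberg), which makes a fitted 7.80-fold difference over the range of scores. Within each genotype the order of Dnmt3l was the order of the score, with slopes of 0.54 in wild-type, 0.54 in heterozygous and 0.79 in homozygous testes (3 testes each, no test). Dnmt3l was called in all 18 alternative analyses of the slope. Aire, a thymic transcription factor gene that overlaps Dnmt3l on the opposite strand, had 0 to 5 counts per testis.

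Dnmt3a and Tet3 fell. Dnmt3a, in the same order of testes, had 59.5, 50.7, 50.3, 53.8, 40.9, 47.0, 53.4, 37.0 and 37.6 CPM. The lowest 2 values were those of the 2 highest scores, and heterozygous replicate 1, with the next score, stood well above them. The slope of Dnmt3a was -0.10 (standard error 0.03, adjusted p = 0.0300, quasi-likelihood test of edgeR, adjusted by Benjamini-Hochberg), a fitted ratio of 0.713 over the range of scores. Tet3 had 56.4, 52.1, 45.6, 44.2, 39.5, 39.1, 49.0, 30.7 and 35.2 CPM, and the same testis, heterozygous replicate 1, again stood above its neighbours in the order. The slope of Tet3 was -0.11 (standard error 0.03, adjusted p = 0.00978, same edgeR quasi-likelihood test), a fitted ratio of 0.674. Both calls depended on single testes, though the slopes stayed of similar size. Without wild-type replicate 1 the adjusted p was 0.202 for Dnmt3a (slope -0.08) and 0.0735 for Tet3 (slope -0.11), and without homozygous replicate 3 it was 0.115 (slope -0.09) and 0.0503 (slope -0.10) in edgeR. Dnmt3a also missed the threshold without wild-type replicate 3 (adjusted p = 0.0566), heterozygous replicate 3 (0.0954) or homozygous replicate 1 (0.0707) in edgeR, and on the FPKM scale in limma.
Both calls also depended on what the libraries were scaled to. Scaled to 10 Sertoli cell genes, which belong to a somatic cell type that no longer divides at this age, the slopes were -0.04 for Dnmt3a (adjusted p = 0.503) and -0.05 for Tet3 (adjusted p = 0.307), and that of Dnmt3l was 0.67 (adjusted p = 7.99e-07, edgeR). The Sertoli genes themselves had a mean slope of -0.06 under TMM scaling. Of all calls, 67.0% were higher with TMM scaling and 98.9% with Sertoli scaling, and the median over all genes was -0.01 and 0.05.

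**Figure D2:**
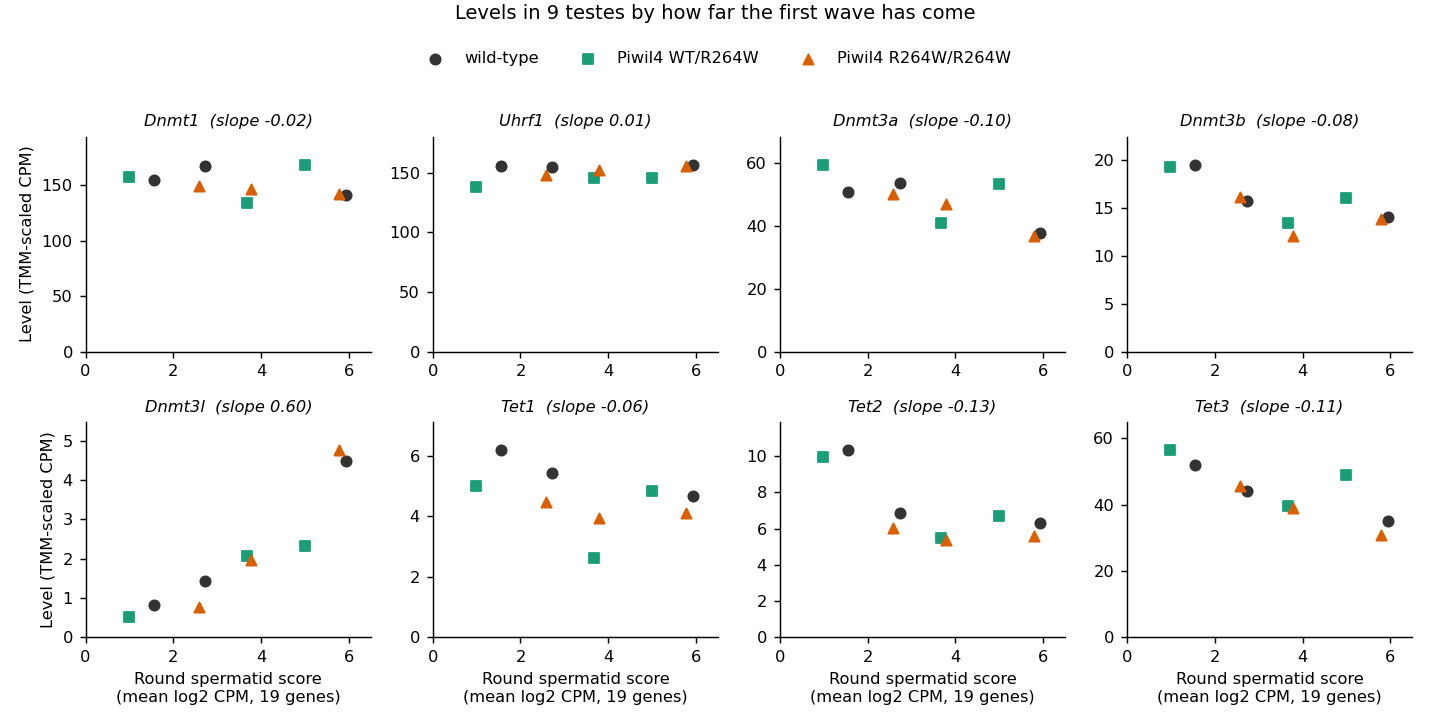
TMM-scaled CPM of each gene (vertical axes from 0) against the round spermatid score (mean log2 CPM of 19 genes) in 9 testes marked by genotype, with the fitted slope in each title. Dnmt3l climbs from 0.525 to 4.75 CPM, in the order of the score within each genotype. Dnmt3a and Tet3 decline, while Dnmt1 and Uhrf1 stay near their means of 151 and 150 CPM.

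The slopes of the other methylation genes did not pass the adjusted threshold in edgeR's quasi-likelihood test. Tet2 had levels of 9.93, 10.3, 6.04, 6.86, 5.47, 5.37, 6.72, 5.61 and 6.33 CPM in order of the score. The 2 testes with the lowest scores stood apart from the other 7, among which no order by score could be seen. Its slope was -0.13 (standard error 0.05, adjusted p = 0.0612, edgeR with Benjamini-Hochberg adjustment), and that of Dnmt3b, which had 12.0 to 19.5 CPM, was -0.08 (standard error 0.03, adjusted p = 0.0930). Both were called without heterozygous replicate 1, with an adjusted p of 0.0429 for Tet2 and 0.0389 for Dnmt3b in edgeR, and Tet2 also without heterozygous replicate 2 (adjusted p = 0.0486). Without the genotype term both were called as well (adjusted p = 0.0305 for Tet2 and 0.0457 for Dnmt3b, edgeR). With a score of pachytene spermatocyte genes in place of the round spermatid score, Tet2 was called (adjusted p = 0.0344, edgeR) and Dnmt3b was not (0.0718). In these settings more negative slopes were called over all genes as well. There were 2795 of 15990 genes without heterozygous replicate 1 and 1797 of 16074 without heterozygous replicate 2. Of 15771 genes, 1890 were called lower without the genotype term and 2218 with the pachytene score, against 1373 in the fit above. Tet1, between 2.63 and 6.17 CPM, had a slope of -0.06 with a 95% interval from -0.18 to 0.06.
Dnmt1 and Uhrf1 varied little over the range of scores. Dnmt1 lay between 134 and 168 CPM and Uhrf1 between 138 and 157 CPM, with coefficients of variation of 7.80% and 4.18%. The slope of Dnmt1 was -0.02 (95% interval -0.07 to 0.03) and that of Uhrf1 was 0.01 (95% interval -0.02 to 0.05). A change of more than 0.07 log2 per unit in either direction thus lay outside both intervals with TMM scaling. With Sertoli scaling Dnmt1 had 0.05 (95% interval -0.02 to 0.11) and Uhrf1 0.08 (95% interval 0.01 to 0.15, adjusted p = 0.0845, edgeR).

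**Figure D3:**
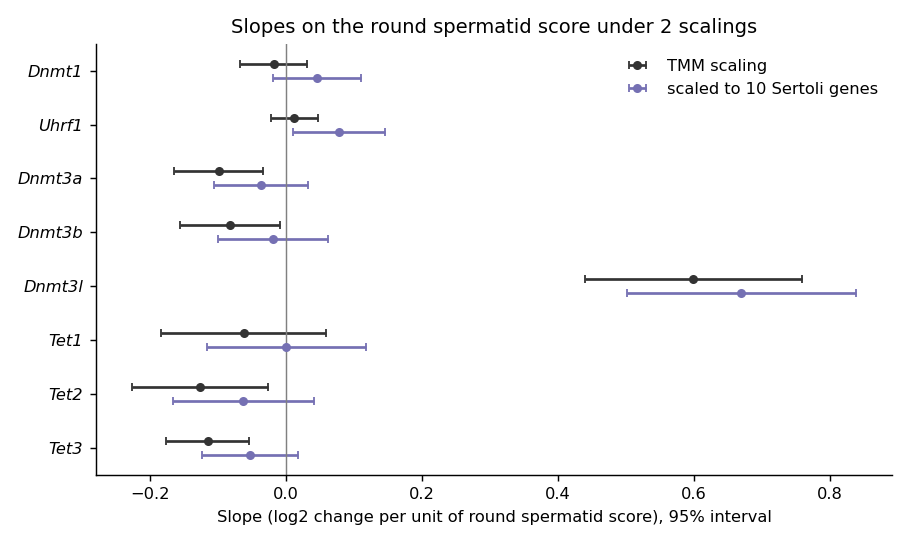
Slope on the round spermatid score for each gene, in log2 change per unit, with 95% intervals from edgeR, under TMM scaling (dark) and scaling to 10 Sertoli cell genes (purple). Dnmt3l lies at 0.60 and 0.67, far from 0 under both, while Dnmt3a and Tet3 lie below 0 with TMM scaling and their intervals reach 0 with Sertoli scaling.

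Marker genes of other cell types also had slopes on the score, and the part of these cell types was not tested. Over all genes tested, 17.7% rose and 8.71% fell with TMM scaling, and 4121 and 46 of 15771 did with Sertoli scaling. Of 12 genes of early meiotic prophase, 7 had a negative slope at an adjusted p under 0.05 in edgeR (0 with Sertoli scaling), among them the synaptonemal complex genes Sycp1 at -0.12 and Sycp3 at -0.10, and 1, the meiotic cohesin gene Rec8, a positive one at 0.33. Of 12 pachytene spermatocyte genes, 8 had a positive slope and 0 a negative one (9 and 0 with Sertoli scaling). Of 8 genes of differentiating spermatogonia, 1 rose and 2 fell with TMM scaling (1 and 0 with Sertoli scaling). Of 10 tested genes of undifferentiated spermatogonia, 1 rose and 1 fell (1 and 0 with Sertoli scaling). Of 10 Sertoli genes, 3 fell with TMM scaling. Of 6 Leydig genes, the steroid synthesis genes Cyp17a1 and Cyp11a1 rose, with slopes of 0.76 and 0.32. With Sertoli scaling 5 of the 6 Leydig genes rose. The mean log2 level of the Leydig list ran from 4.21 to 5.76 over the testes. Genes of the epididymis summed to 47.5 CPM in homozygous replicate 1 and to at most 5.83 CPM elsewhere, and those of striated muscle to 4.96 and 2.06 CPM in homozygous replicates 2 and 3 and to at most 1.08 CPM elsewhere. The summed level of the 10 Sertoli genes ran from 1605 to 2471 CPM.

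The partners of these enzymes were examined in 6 lists, of which 79 genes were tested. By the adjusted p of edgeR (quasi-likelihood), 7 of them had a positive and 10 a negative slope on the score, against shares of 17.7% and 8.71% over all genes tested, and their median slope was -0.04 against -0.01. The falls rested on the scaling. With Sertoli scaling 12 of the 79 had a positive slope and 0 a negative one (edgeR), and the values below are with TMM scaling. Of 15 cofactors tested, 3 rose and 3 fell. Those that rose were Zfp57 (0.24), which protects imprinted regions from demethylation, Usp7 (0.10), a deubiquitinase that binds DNMT1 and UHRF1, and Ehmt2 (0.09), a histone H3 lysine 9 methyltransferase. Those that fell were Trdmt1 (-0.14), an RNA methyltransferase related to the DNMTs, and Cdca7 (-0.13) and Hells (-0.12), which together form a nucleosome remodeller needed for DNA methylation. Of 11 methyl-CpG readers, Mbd3l1 rose with a slope of 1.01 (standard error 0.05, adjusted p = 4.53e-09, edgeR) and the other 10 did not pass. Mbd3l1 encodes a germ cell protein related to MBD3 that lacks its methyl-CpG-binding domain.
Of 13 demethylation partners, Xrcc1 rose, with a slope of 0.06, and the DNA glycosylase gene Tdg did not pass (-0.06, adjusted p = 0.213, edgeR). Of 13 genes of the S-adenosylmethionine cycle, the methyl donor pathway, Ahcyl2 rose (0.06) and Mtrr (-0.08) and Mat2b (-0.08) fell. Of 8 genes of piRNA-directed methylation, 0 rose and 3 fell, which were Spin1 (-0.09), a histone reader, and Mov10l1 (-0.06) and Piwil2 (-0.06), both needed to make piRNAs. Of 19 S phase genes, Chaf1a rose (0.08) and Mcm6 (-0.09) and Ccne2 (-0.08) fell. Apart from Zfp57 and Mbd3l1, each called slope in these 6 lists was at most 0.14 in size.

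**Figure D4:**
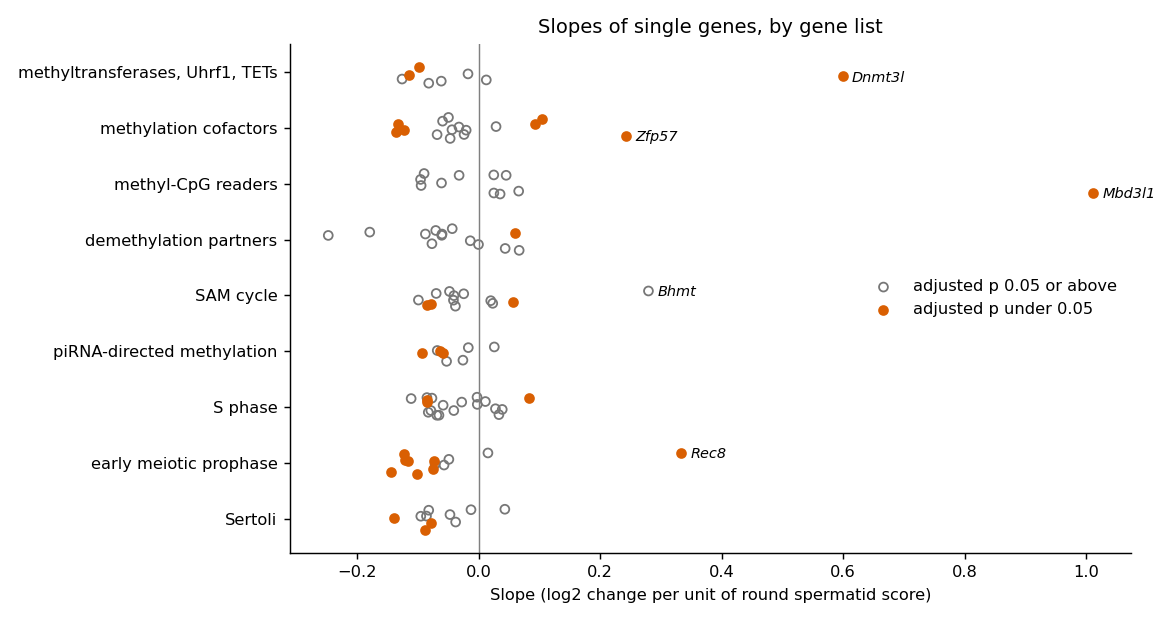
Slope on the round spermatid score (log2 change per unit) of single genes in 9 gene lists, filled where the adjusted p from edgeR was under 0.05 and open otherwise, with genes above 0.2 named. Dnmt3l (0.60) and Mbd3l1 (1.01) lie far to the right of the other genes of their lists, and vertical position within a list carries no meaning.

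The genes whose levels followed a methylation gene most closely were listed by Pearson's r of log2 CPM over 9 testes that share the same stage range. For each methylation gene, the 3 highest were taken from 11621 or 11622 genes with a mean of at least 5 CPM, so a high r is partly a result of the selection. For Dnmt3l the genes taken were Zfp169 (r = 0.992), Akap14 (r = 0.991) and Zfp608 (r = 0.988). For Dnmt3a they were Snx9 (r = 0.991), Atp2b1 (r = 0.991) and Kat6a (r = 0.983), and for Tet3 they were Alcam (r = 0.992), Lrpprc and Rnf144a (both 0.99). Parp4, Spata5 and Primpol were nearest to Dnmt3b, and Gpatch8, Pard6g and Spata5 to Tet2. Nearest to Uhrf1 were Cdsn, Tbc1d5 and Irak3, and nearest to Tet1 were Stk26, Zfp827 and Acsf2, with r between 0.919 and 0.964 for these 6. Among the 8 genes themselves, Dnmt3a and Tet3 (r = 0.919) and Dnmt3b and Tet2 (r = 0.926) varied together, and Dnmt3l varied against Tet3 (r = -0.872) and Dnmt3a (r = -0.831). Dnmt1 and Uhrf1, partners in maintenance, had r = -0.16.

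Whether the Piwil4 allele changed these genes was asked by comparing the genotypes pair by pair. The share of all genes with an adjusted p under 0.05 by the quasi-likelihood test of edgeR, adjusted by Benjamini-Hochberg, was 0% in each of the 3 comparisons (0 of 15543, 15463 and 15413 genes), and 0 of the 8 methylation genes were called. At an unadjusted p under 0.05 the shares were 1.26% for homozygous against wild-type, 2.22% for homozygous against heterozygous and 1.11% for heterozygous against wild-type, again with 0 of the 8 genes in each. These counts depended on single testes. Without wild-type replicate 1, 1164 genes in place of 196 had an unadjusted p under 0.05 between homozygous and wild-type testes, among them Tet1 (-0.47, unadjusted p = 0.0391, edgeR) and Tet2 (-0.60, unadjusted p = 0.0327, edgeR). Without heterozygous replicate 2, 1145 genes in place of 343 did so between homozygous and heterozygous testes, among them Tet2 (-0.55, unadjusted p = 0.0449, edgeR). DESeq2 called 2, 6 and 0 genes in the same comparisons, none of them among the 8. The comparisons share testes, so they are not independent. The genotypes were taken from the labels, since gene-level counts cannot separate the Piwil4 alleles.

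The maintenance genes were close between genotypes. Uhrf1 had 157, 155 and 155 CPM in wild-type replicates 1, 2 and 3, 145, 146 and 138 CPM in heterozygous and 148, 152 and 155 CPM in homozygous testes. In CPM the heterozygous testes lay below both other genotypes without overlap. Their FPKM of 41.5 to 46.6 lay below the 47.9 to 51.8 of wild-type testes but overlapped the 43.1 to 49.0 of the homozygous testes. The log2 fold changes were -0.13 (standard error 0.07, unadjusted p = 0.0957, adjusted p = 1.0, edgeR) for heterozygous against wild-type and 0.09 (standard error 0.06, unadjusted p = 0.201, adjusted p = 0.948, edgeR) for homozygous against heterozygous. Between groups that do not overlap, the two-sided exact permutation test has p = 0.1, which is its minimum for 3 testes against 3. Of all genes tested, 5.68% did not overlap between homozygous and wild-type testes, 7.15% between homozygous and heterozygous testes and 5.31% between heterozygous and wild-type testes. Dnmt1 had 154 ± 12.9 CPM in wild-type, 153 ± 17.8 CPM in heterozygous and 146 ± 3.69 CPM in homozygous testes (SD, n = 3 each). For homozygous against wild-type, the 95% interval of the log2 fold change was -0.27 to 0.11 for Dnmt1 and -0.18 to 0.10 for Uhrf1.

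Of the TET genes, Tet1 and Tet2 were lower in all 3 homozygous testes than in all 3 wild-type testes, in TMM-scaled CPM, though neither passed the test. In this comparison 5.68% of all genes tested did not overlap, in either direction. In the deposited FPKM the groups overlapped, with 0.270 to 0.490 for Tet1 and 0.570 to 0.650 for Tet2 in homozygous against 0.290 to 0.430 and 0.630 to 1.12 in wild-type testes. Tet1 had 4.66, 5.44 and 6.17 CPM in wild-type replicates 1, 2 and 3 and 4.47, 3.95 and 4.12 CPM in the homozygous replicates. The heterozygous testes had 4.84, 2.63 and 4.99 CPM and overlapped both groups. The log2 fold change of homozygous against wild-type was -0.38 (standard error 0.17, unadjusted p = 0.0702, adjusted p = 1.0, edgeR's quasi-likelihood test), on 72 to 128 counts per testis.
Tet2 had 6.33, 6.86 and 10.3 CPM in wild-type replicates 1, 2 and 3 and 6.04, 5.37 and 5.61 CPM in the homozygous replicates. The gap between the groups was small, and wild-type replicate 3, with a low stage score, held the highest value of all. The heterozygous testes had 6.72, 5.47 and 9.93 CPM. The log2 fold change was -0.47 (standard error 0.22, unadjusted p = 0.0753, adjusted p = 1.0, edgeR), and -0.60 to -0.21 with single libraries left out. With the stage score as a covariate it was -0.37 for Tet2 (unadjusted p = 0.0785, edgeR) and -0.33 for Tet1 (unadjusted p = 0.172, edgeR). Without homozygous replicate 1, which had the highest epididymal sum, the values were -0.43 for Tet1 and -0.51 for Tet2, and without replicate 2, which had the highest muscle sum, they were -0.34 and -0.43. Tet3, the main TET of these testes, had 43.8 ± 8.47 CPM in wild-type, 48.3 ± 8.47 CPM in heterozygous and 38.5 ± 7.48 CPM in homozygous testes (SD, n = 3 each), with overlap between all groups.

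The de novo genes overlapped between all genotypes. Dnmt3a had 47.4 ± 8.57 CPM in wild-type, 51.3 ± 9.47 CPM in heterozygous and 44.8 ± 6.97 CPM in homozygous testes, and Dnmt3b had 16.5 ± 2.78, 16.3 ± 2.92 and 14.0 ± 2.05 CPM (SD, n = 3 each). Dnmt3l had 2.24 ± 1.96 CPM in wild-type, 1.64 ± 0.97 CPM in heterozygous and 2.49 ± 2.05 CPM in homozygous testes (SD, n = 3 each). The coefficient of variation of Dnmt3l within a genotype was 87.5%, 59.4% and 82.3% in the same order. For homozygous against wild-type its log2 fold change was 0.14 with a standard error of 0.82, and -0.14 with a standard error of 0.29 once the stage score was a covariate. The 95% interval narrowed from -1.84 to 2.12 to -0.77 to 0.48, and the direction changed. Differences of Dnmt3l between homozygous and wild-type mice that lie within these bounds were not excluded by these testes.

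**Figure D5:**
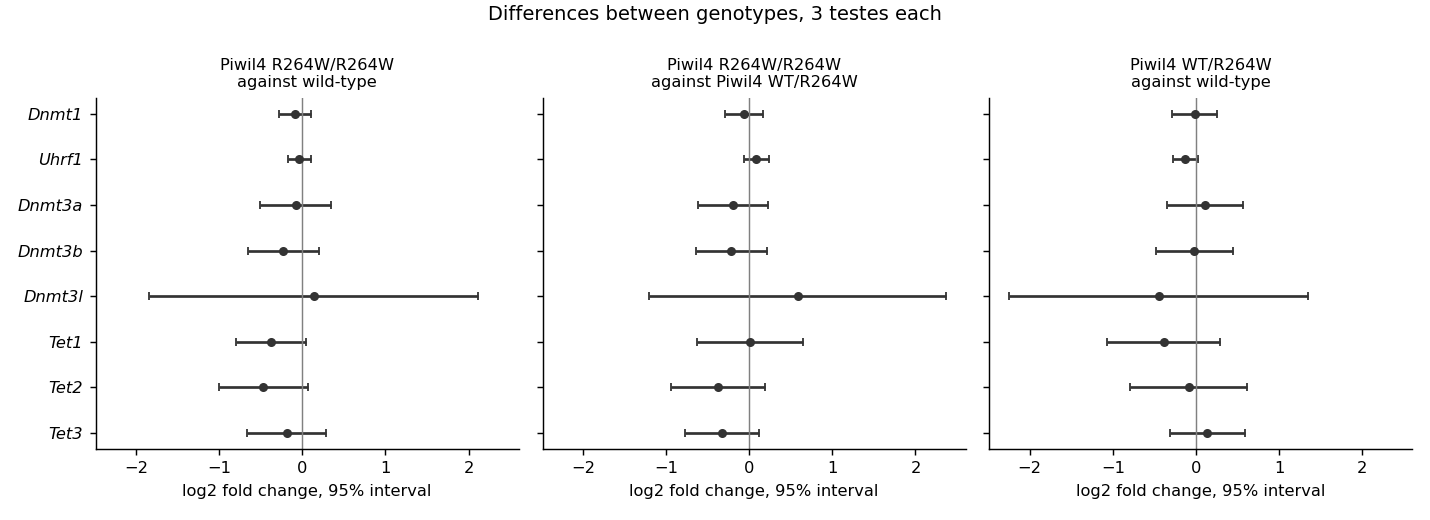
Log2 fold change of each gene with its 95% interval from edgeR, in 3 panels for the 3 comparisons of genotypes with 3 testes each. Every interval spans 0, those of Dnmt1 and Uhrf1 are the narrowest, and that of Dnmt3l reaches from -1.84 to 2.12 in homozygous against wild-type testes.

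Dnmt3c, a rodent paralog of Dnmt3b that methylates young retrotransposons in fetal male germ cells, was also measured. It had 1.56 ± 0.0831 CPM in wild-type, 2.07 ± 0.397 CPM in heterozygous and 2.16 ± 0.176 CPM in homozygous testes (SD, n = 3 each). The homozygous testes lay above the wild-type testes without overlap, and 5.68% of all genes tested did not overlap in either direction. The log2 fold change of Dnmt3c was 0.46 (standard error 0.20, unadjusted p = 0.0558, adjusted p = 1.0, edgeR), on 30 to 49.3 estimated counts per testis. With DESeq2 it was 0.47 (standard error 0.36, unadjusted p = 0.189). With the size factors of DESeq2 in edgeR the unadjusted p was 0.0499. The slope of Dnmt3c on the stage score was -0.02 (adjusted p = 0.839, edgeR). The counts of Dnmt3b and Dnmt3c were fractional in 4 of 9 testes while their sums were whole in all 9, so reads were shared between these near copies, and the values of both genes are uncertain.
Among the 79 partner genes, 0 were called between genotypes by edgeR (quasi-likelihood, adjusted by Benjamini-Hochberg). Between homozygous and heterozygous testes 3 had an unadjusted p under 0.05, and 0 did in each of the other 2 comparisons. They were Ctcfl (log2 fold change -0.59), a germ cell paralog of CTCF, Ogt (-0.39), which modifies proteins with a sugar and binds TET enzymes, and Bhmt (1.42), which makes methionine from betaine. In the same comparison, where 2.22% of all genes had an unadjusted p under 0.05, so did 2 of 8 tested markers of differentiating spermatogonia, Sohlh2 (-0.34) and Dmrt1 (-0.35), and 2 of 11 of undifferentiated spermatogonia, Nanos3 (-1.35) and Ret (-0.62). Nanos3 did not pass the filter on low counts in the fit over all 9 testes. The medians of the 2 lists between homozygous and heterozygous testes were -0.26 and -0.25, against 0.00619 over all genes. Between homozygous and wild-type testes 8 and 10 markers of the lists were tested, and 0 had an unadjusted p under 0.05 in edgeR. The list medians there were -0.00878 and -0.06. The 7 genes named here had an adjusted p of 0.948 each between homozygous and heterozygous testes in edgeR.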

How the data were processed

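The 9 testis samples, 3 per genotype, were assigned to groups from the sample labels, which do not give the number of mice. The authors filtered reads with fastp (version 0.18.0) and assembled them with StringTie (version 1.3.1). Per the file headers each gene has an FPKM and an estimated count in each testis. The submitters' notes name mm39, and the aligner and counting tool are not given in the sources used here. Of the estimated counts, 89.2% were whole, and all were rounded. Coordinates are those of GRCm38, whose GENCODE annotation held 22232 of 22337 identifiers.

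Tests used edgeR (version 4.0.16; R version 4.3.3) with filterByExpr, TMM scaling and two-sided quasi-likelihood tests, on 2 genotypes at a time and, for the score, on all 9 testes. The score used a prior count of 1. DESeq2 (version 1.42.0), log2(FPKM + 0.1) and log2(FPKM + 1) in limma (version 3.58.1) where mean FPKM reached 0.5, other scalings, and each testis left out were alternatives. So were no filter on low counts and a replicate block, and for the slopes no genotype term and a score of 12 pachytene spermatocyte genes. For the genotypes, a fit of all 9 testes and the stage score as a covariate were further alternatives. A count of 0 allows up to 3 counts, 0.122 to 0.172 CPM, for counting error only. Intervals are 95% intervals from the fits. The edgeR script was tested on simulated data. Correlations are descriptions.

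The 8 genes and the gene lists were chosen with earlier results of these data known. Named were the 8 genes, Dnmt3c, the 3 genes nearest to each (for Dnmt1 not reported here), up to 3 rising and 3 falling genes per partner list, and list genes with an unadjusted p under 0.05 between genotypes. Tdg, Aire and the early meiotic and Leydig genes were named outside this rule, after their values were seen. Replicate libraries of a genotype differed by more than sampling noise.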

Additional observations from a re-analysis of the deposited data

How the results depend on the processing

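Of the 8 slopes on the round spermatid score, 3 were called with edgeR, 1 when scaled to the Sertoli genes, 5 without the genotype term and 1 to 5 when a testis was left out. It was 1 without wild-type replicate 1 and 1 without homozygous replicate 3, and 5 without heterozygous replicate 1. Dnmt3l was called in 18 of 18 alternatives, Tet3 in 15 and Dnmt3a in 10. Over all genes, 4158 slopes were called, and 2136 to 6230 with a testis left out (2136 without wild-type replicate 1, 2481 without wild-type replicate 3 and 2539 without homozygous replicate 3), and the higher share of the calls was 67.0%, against 44.7% with limma on log2(FPKM + 0.1), 44.9% on log2(FPKM + 1) and 98.9% with Sertoli scaling. With Sertoli scaling the slopes of Dnmt1 (0.0457) and Tet1 (0.00108) turned positive, and with limma that of Uhrf1 turned to -0.0190 and -0.0186 with pseudocounts of 0.1 and 1. With a testis left out the slope of Dnmt1 ran from -0.0453 to 0.00287. Tet1 was below the FPKM filter and was not tested with limma. The cause of these changes was not tested.

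Between genotypes 0 of the 8 genes were called under each alternative, so the turns of direction are among differences that did not pass. Without a testis the log2 fold change of homozygous against wild-type ran from -0.22 to 0.0392 for Dnmt3a and from -0.72 to 1.13 for Dnmt3l, which was -0.14 with the score as a covariate. Against heterozygous it ran from -0.16 to 0.0136 for Dnmt1, -0.23 to 0.16 for Tet1 and -0.27 to 1.01 for Dnmt3l. For heterozygous against wild-type it ran from -0.0908 to 0.0843 for Dnmt1, -0.0272 to 0.26 for Dnmt3a, -0.16 to 0.12 for Dnmt3b, -0.84 to 0.55 for Dnmt3l and -0.37 to 0.16 for Tet2, and limma on log2(FPKM + 0.1) and log2(FPKM + 1) gave 0.020 and 0.0194 for Dnmt1 and 0.00670 and 0.00458 for Dnmt3b.

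With the replicate number as a replicate block, 3 slopes and 0 genotype differences were called. The deviations of same-numbered testes from their group means had correlations of 0.71, -0.07 and 0.78 between heterozygous and wild-type testes, but of -0.73, 0.07 and -0.72 and of -0.65, -0.15 and -0.73 in the comparisons with homozygous testes, so the numbers were not taken as pairs. Counts of 10 to 96 per testis limit the precision of Dnmt3l, and counts of 47 to 128 that of Tet1.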
